A study of Mus musculus with 7 samples.

Results

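The 10 genes described here mark macrophages of the heart. They were the rows of the deposited tables whose Ensembl identifiers map to Cd68, Csf1r, Adgre1, C1qa and Fcrls (5 general genes), Lyve1, Timd4, Mrc1 and Cd163 (4 resident genes) and Ccr2 (1 recruited gene). All 10 were found among 22027 listed genes, and all 10 were among the 12674 genes that passed the filter on low counts. Their counts ran from 10 for Fcrls in 1 library to 2232 for C1qa in another.

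Macrophages of the adult heart come from more than one source. Resident cells settle before birth, renew themselves locally, and are known by the surface proteins encoded by Lyve1, Timd4, Mrc1 and Cd163. Recruited cells derive from blood monocytes that enter tissue through the chemokine receptor CCR2, and both kinds depend on the growth factor receptor CSF1R. None of these genes is perfectly selective, since Lyve1 and Mrc1 are also used by lymphatic endothelium and Fcrls is best known from the microglia of the brain.

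Left ventricles of 12-month-old C57BL/6J mice were sequenced as bulk RNA. The group G3 (4 libraries) is telomerase-deficient, and the group G3 PGC1aOE (3 libraries) is telomerase-deficient with PGC1alpha overexpressed, so the telomerase defect is common to every library and no telomerase-intact heart is among them. The labels give neither the promoter nor the cell type in which PGC1alpha was raised, and leave unsaid whether libraries came from separate animals, so the p-values below measure only how these samples vary, which may be technical. In bulk tissue, fewer cells of a type and less RNA per cell cannot be told apart.

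Totals ran from 10106705 to 16056740 counts per library. The 6 cardiomyocyte markers summed to between 38814 and 61197 CPM (counts scaled to library size with TMM factors), so the label of heart muscle was borne out. Ppargc1a, which encodes PGC1alpha, went against the label, at 68.3 ± 30.8 CPM (SD, n = 3) in libraries labelled G3 PGC1aOE and 89.1 ± 25.4 CPM (SD, n = 4) in G3, with a log2 fold change of −0.38 (SE 0.34, edgeR adjusted p = 0.847). Every direction below therefore rests on the label alone. edgeR's quasi-likelihood test called 0 of 12674 genes at an adjusted p of 0.05 (548 had an unadjusted p under 0.05), DESeq2 called 3 and limma voom 0. Each sample's description also carries a code number, below 80 in G3 1, 2 and 3 and in G3 PGC1aOE 1, and above 80 in G3 4 and G3 PGC1aOE 2 and 3. Ahead of the number stand letters and a code text, which is either G2 or G3. Label and code text differ for G3 PGC1aOE 1, for G3 3 and also for G3 1, whose code text is G2. The code of G3 4 opens with the letter P, as do those of all G3 PGC1aOE libraries but of no other G3 library. The meaning of the number, letters and code text is not stated, and the groups here follow the labels.

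Promoter sequences are shown for 3 members that behaved differently below, Ccr2 and Fcrls, whose levels stood together, and the resident gene Mrc1. They are the 250 bases before the start of each gene in RefSeq on GRCm38.p6, a later build than the mm9 of the deposited files, at chr9:124101933-124102182 on the plus strand for Ccr2, chr3:87263525-87263774 on the minus strand for Fcrls and chr2:14229164-14229413 on the plus strand for Mrc1. Capitals mark GAGGAA, the purine-rich core bound by factors such as PU.1, or its reverse complement.
Ccr2: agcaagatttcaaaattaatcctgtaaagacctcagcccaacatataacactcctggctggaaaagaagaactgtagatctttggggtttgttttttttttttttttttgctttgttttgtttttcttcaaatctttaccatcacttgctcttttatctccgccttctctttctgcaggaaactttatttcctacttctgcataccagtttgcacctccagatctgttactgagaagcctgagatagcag
Fcrls: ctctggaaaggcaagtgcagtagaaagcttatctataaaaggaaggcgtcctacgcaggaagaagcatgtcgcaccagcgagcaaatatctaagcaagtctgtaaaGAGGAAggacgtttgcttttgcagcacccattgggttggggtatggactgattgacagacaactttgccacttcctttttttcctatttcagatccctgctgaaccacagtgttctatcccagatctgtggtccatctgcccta
Mrc1: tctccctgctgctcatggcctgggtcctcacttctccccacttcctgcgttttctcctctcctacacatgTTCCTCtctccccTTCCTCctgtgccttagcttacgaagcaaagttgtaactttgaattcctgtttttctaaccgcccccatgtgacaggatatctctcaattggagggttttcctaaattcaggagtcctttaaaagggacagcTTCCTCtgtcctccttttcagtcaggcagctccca
Both strands were searched in windows of 300 bases (250 before and 50 after the start), which were found for 6 of the 10 members (Ccr2, Fcrls, Mrc1, Cd163, Timd4 and Cd68). Mrc1 held GAGGAA 3 times, Cd68 2 times and Fcrls 1 time, so 3 of 6 member windows held it, as did 28.3% of all 32851 windows. The longer PU.1 core GAGGAAGT, which contains GAGGAA, was in 0 of 6 member windows and in 3.20% of all windows. TGCTGAC, a motif of MAF factors, was in the window of Timd4 alone among the 6, and in 4.67% of all. A match is a run of letters and not a measured binding site, and GAGGAA was added after the longer core had been searched.

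Compared per length, as deposited FPKM (counts divided by gene length and library total), the members spanned a wide range. C1qa, a chain of the complement protein C1q that tissue macrophages secrete, was the highest at 97.0 ± 40.8 FPKM (SD, n = 7), above every other member in 7 of 7 libraries. Next stood Lyve1 at 17.4 ± 8.43, Cd68 at 11.2 ± 5.27, Mrc1 at 11.0 ± 5.64, Cd163 at 9.92 ± 6.53 and Csf1r at 9.48 ± 3.44 FPKM, whose ranges all overlapped with their neighbours. Csf1r exceeded Adgre1, at 3.59 ± 1.44 FPKM, in 7 of 7 libraries with no overlap of their ranges. Fcrls followed at 2.27 ± 1.62, then Ccr2 at 1.11 ± 0.60 and Timd4 at 0.94 ± 0.21 FPKM, and these last neighbours also overlapped. The resident genes Lyve1, Mrc1 and Cd163 were thus listed well above the recruited gene Ccr2, while the resident gene Timd4 lay at the bottom with it.

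**Figure D1:**
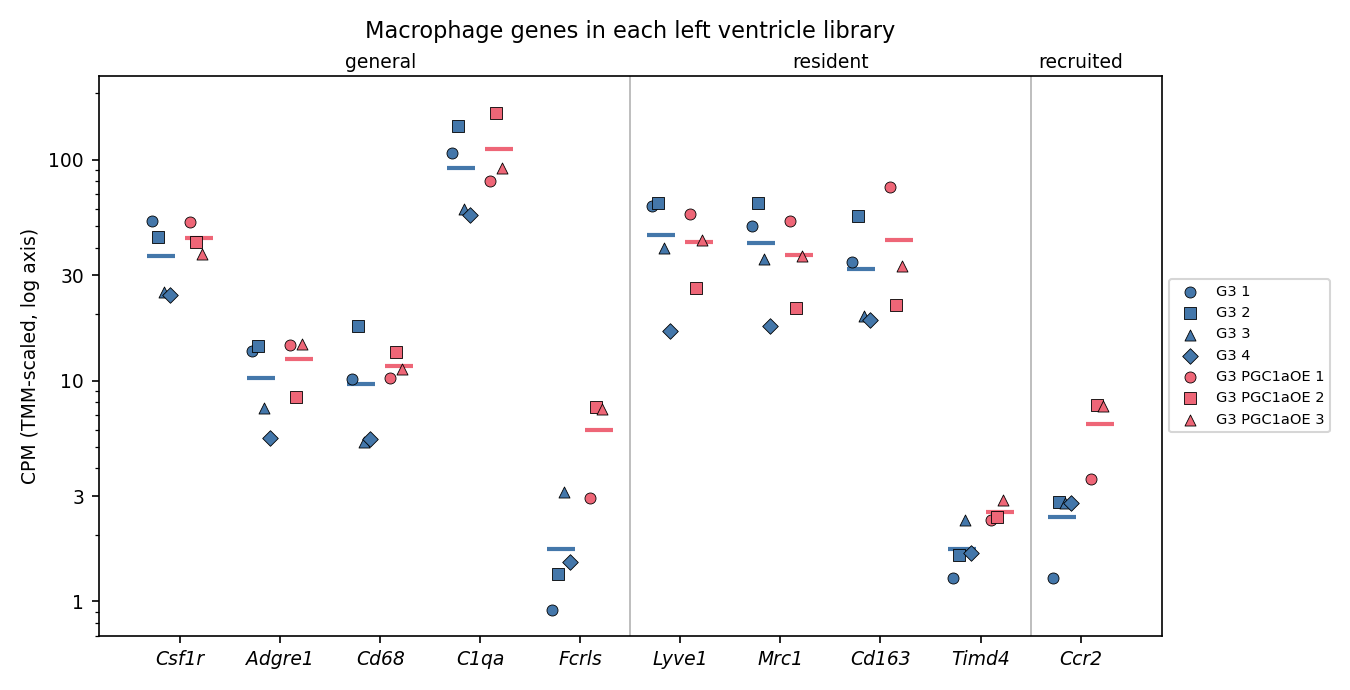
CPM (log axis) of the 10 genes in each library, blue for the 4 G3 libraries and red for the 3 G3 PGC1aOE libraries; short bars are group means. Ccr2 is the only one of the 10 whose groups do not overlap, and G3 4 is the lowest library for Csf1r, Adgre1, C1qa, Lyve1, Mrc1 and Cd163.

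Ccr2 and Fcrls had the largest log2 fold changes of the 10 members, and neither passed the threshold. Ccr2 (ENSMUSG00000049103), the receptor by which monocytes leave the marrow and enter tissue, was at 1.28, 2.81, 2.78 and 2.78 CPM across G3 1 to 4, whereas libraries G3 PGC1aOE 1 to 3 had 3.57, 7.79 and 7.66 CPM, from 14 to 107 counts. Each G3 PGC1aOE library exceeded each G3 library, and G3 PGC1aOE 1 stood nearest to G3. On the log2 scale the fitted difference was 1.39 (SE 0.37, 95% interval 0.56 to 2.21), with an adjusted p of 0.847 in edgeR's quasi-likelihood test. The log2 CPM differed by 1.32 with an exact 2-sided permutation p of 0.0286, the smallest that the 35 splits of 7 libraries can give. This p restates the non-overlap of the groups and is not adjusted over the members. The same permutation test gave at least 0.0857 for every other member. Non-overlap in this direction held for 1 of 10 members and for 2.19% of all tested genes, in the other direction for 0 of 10 and 2.39%, and in either for 1 of 10 and 4.58%. Of its transcript's runs of 36 bases, 2.83% are also found in other genes, so a small part of its counts could be split.

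Fcrls (ENSMUSG00000015852), an Fc receptor-like scavenger gene, had 0.91, 1.33, 3.14 and 1.50 CPM across G3 1 to 4, and 2.95, 7.57 and 7.44 CPM across G3 PGC1aOE 1 to 3. G3 3 lay above G3 PGC1aOE 1, so the groups overlapped, and the other G3 libraries lay below all 3. The log2 fold change of 1.80 (SE 0.46, 95% interval 0.78 to 2.82) was the largest of the members and had an adjusted p of 0.847 in edgeR's quasi-likelihood test. Its 326 counts over all libraries make it, after Timd4, the member with the fewest counts. Fcrls and Ccr2 were the 2 of 10 members with an unadjusted p under 0.05 on the higher side, where 3.05% of all tested genes lay, and 0 of 10 had one on the lower side, where 1.27% lay. None of the 10 was called, beside 0.0% of all tested genes.

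**Figure D2:**
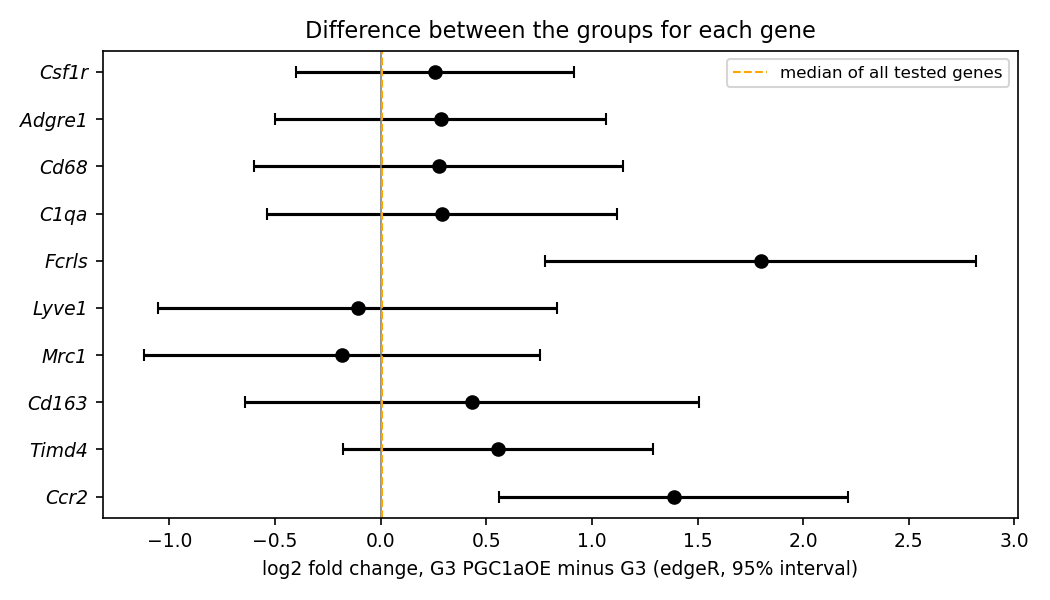
Log2 fold change of each gene, G3 PGC1aOE minus G3, from edgeR with its 95% interval; the dashed line is the median of all 12674 tested genes. The intervals of Ccr2 (0.56 to 2.21) and Fcrls (0.78 to 2.82) lie above 0, before adjustment over all genes, and the other 8 include it.

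None of the other 4 general genes passed, and the groups overlapped in each. Csf1r (ENSMUSG00000024621), the receptor for the macrophage growth factors CSF1 and IL-34, stood at 52.7, 44.6, 25.3 and 24.5 CPM across G3 1 to 4, and at 52.2, 42.5 and 37.3 CPM across G3 PGC1aOE 1 to 3. G3 1 was the highest of the 7 libraries and G3 3 and G3 4 were the lowest, so the groups overlapped. Its log2 fold change was 0.26 (SE 0.30, 95% interval −0.40 to 0.92, edgeR adjusted p = 0.864), and it ran from 0.098 without G3 3 to 0.48 without G3 1. Of the runs of 36 bases in its transcripts, 14.5% also lie in transcripts of Hmgxb3, so some of its counts are uncertain.

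Adgre1 (ENSMUSG00000004730), which encodes the F4/80 antigen, had 13.7, 14.4, 7.53 and 5.49 CPM across G3 1 to 4 against 14.5, 8.45 and 14.6 CPM across G3 PGC1aOE 1 to 3. Cd68 (ENSMUSG00000018774), a lysosomal membrane glycoprotein, measured 10.2, 17.7, 5.29 and 5.41 CPM across the same G3 libraries against 10.3, 13.5 and 11.3 CPM. C1qa (ENSMUSG00000036887) measured 107, 142, 60.0 and 56.1 CPM against 80.3, 162 and 92.2 CPM. In each of these 3 genes the groups overlapped, with G3 3 and G3 4 as the 2 lowest libraries. Their log2 fold changes were 0.28 for Adgre1, 0.27 for Cd68 and 0.29 for C1qa, with adjusted p-values of 0.871, 0.885 and 0.876 (edgeR). Without G3 PGC1aOE 2 the value of C1qa was −0.082, and that of Cd68 was 0.054 without G3 3 and 0.078 without G3 4. Adgre1 ran from 0.076 without G3 4 to 0.50 without G3 PGC1aOE 2.

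With group as the only term, the resident genes showed no common direction. Lyve1 (ENSMUSG00000030787), a receptor for hyaluronan, had 61.5, 63.8, 40.005 and 16.8 CPM across G3 1 to 4, and 56.7, 26.4 and 43.5 CPM across G3 PGC1aOE 1 to 3. Mrc1 (ENSMUSG00000026712), the mannose receptor CD206, measured 50.3, 63.9, 35.7 and 17.6 CPM against 52.8, 21.3 and 36.6 CPM. Both genes ran in nearly the same order over the libraries, with G3 4 lowest and G3 PGC1aOE 2 next. The log2 ratio of Lyve1 to Mrc1 was 0.10 ± 0.16 (SD, n = 4) in G3 and 0.22 ± 0.10 (SD, n = 3) in G3 PGC1aOE, a smaller spread than either gene had alone.

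Cd163 (ENSMUSG00000008845), the scavenger receptor for haemoglobin bound to haptoglobin, stood at 34.6, 55.6, 19.6 and 18.7 CPM across G3 1 to 4 and at 75.0, 22.1 and 33.1 CPM across G3 PGC1aOE 1 to 3. G3 PGC1aOE 1 was the highest of the 7 libraries and G3 4 the lowest. Timd4 (ENSMUSG00000055546), a receptor for phosphatidylserine on dying cells, measured 1.28, 1.63, 2.33 and 1.65 CPM against 2.33, 2.40 and 2.87 CPM, from 14 to 39 counts. G3 3 and G3 PGC1aOE 1 were level to the digits given, with G3 3 higher in the next, so the groups overlapped, and the other G3 libraries were lower than all 3. The log2 fold changes were −0.11 for Lyve1 (95% interval −1.05 to 0.84), −0.18 for Mrc1 (−1.12 to 0.75), 0.43 for Cd163 (−0.64 to 1.51) and 0.56 for Timd4 (−0.18 to 1.29). Their adjusted p-values were 0.956, 0.933, 0.860 and 0.847 (edgeR). Lyve1 and Mrc1 turned positive without G3 2 (0.10 for both), Lyve1 also without G3 1 (0.07), and Cd163 was −0.23 without G3 PGC1aOE 1.

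**Figure D3:**
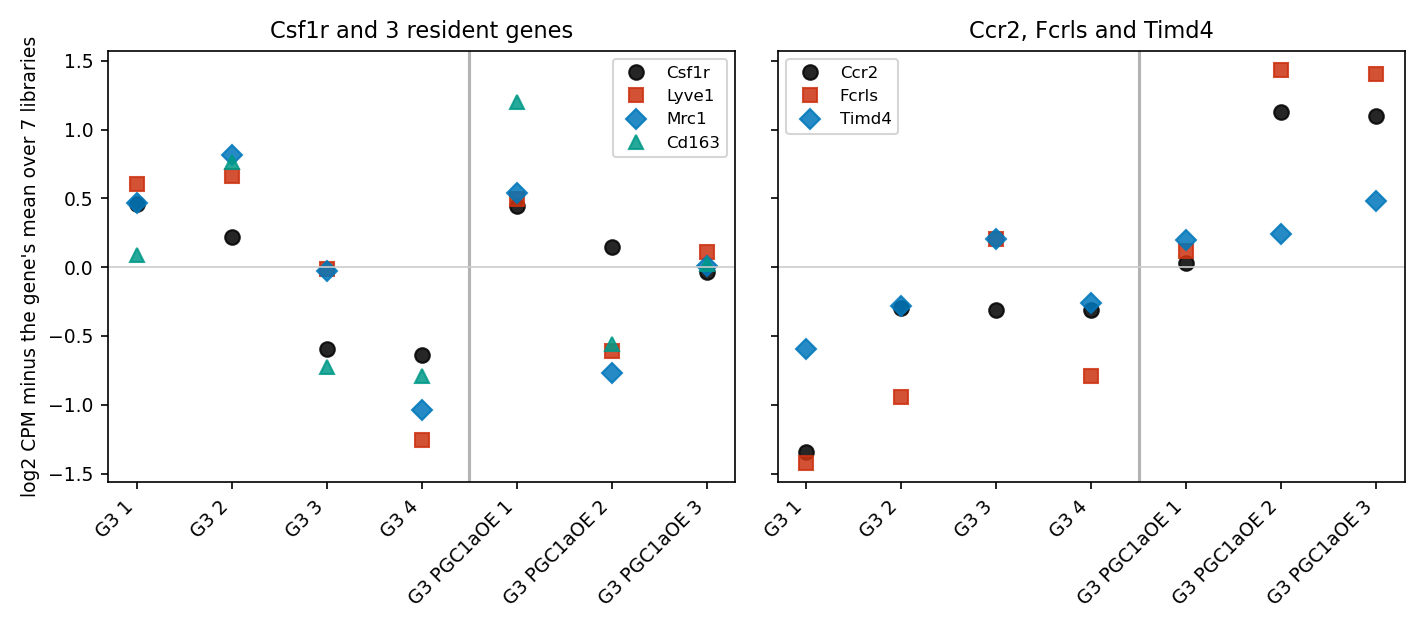
Log2 CPM of single genes in each library, centred on the gene's own mean over 7 libraries; the vertical line separates the 4 G3 from the 3 G3 PGC1aOE libraries. In the left panel Csf1r, Lyve1, Mrc1 and Cd163 are low in G3 4, and in the right panel Ccr2 and Fcrls are lowest in G3 1 and highest in G3 PGC1aOE 2 and 3.

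Libraries with more signal from the abundant members were not those with more Ccr2. The 10 members summed to 333, 408, 202 and 150 CPM across G3 1 to 4, and to 351, 314 and 286 CPM across G3 PGC1aOE 1 to 3. G3 1, the third highest of these sums, was the lowest library for Ccr2, Fcrls and Timd4, and G3 4, the lowest sum, was the lowest for 6 other members. G3 PGC1aOE 2 was the highest library for C1qa, Fcrls and Ccr2 and yet the second lowest for Lyve1 and Mrc1.

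The recruited gene was compared with the general and resident genes within each library, where the scaling of the library cancels, and where a constant gene length does not affect the difference between groups. The log2 ratio of Ccr2 to Csf1r was −5.20, −3.92, −3.12 and −3.07 across G3 1 to 4, and −3.81, −2.42 and −2.26 across G3 PGC1aOE 1 to 3. G3 PGC1aOE 1 fell within the range of G3, and the other 2 lay above it. The mean ratio was −3.83 ± 1.00 (SD, n = 4) in G3 and −2.83 ± 0.85 (SD, n = 3) in G3 PGC1aOE, a difference of 0.99 with an exact 2-sided permutation p of 0.257 (smallest possible 0.0286). Without G3 1 the difference was 0.53 (exact permutation p = 0.4). The higher Ccr2 was therefore not shown to differ from the change of Csf1r.

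Against the mean of the 4 resident genes, the log2 ratio of Ccr2 was −3.79, −3.09, −2.47 and −1.78 across G3 1 to 4, and −2.88, −0.75 and −1.36 across G3 PGC1aOE 1 to 3. The groups overlapped, and this ratio is given as a description with no test. Its members, like those of the ratio to Csf1r, were chosen with results known. Gene by gene, the ratio of Ccr2 was higher in G3 PGC1aOE by 1.45 on the log2 scale against Mrc1, 1.32 against Lyve1, 0.93 against Cd163 and 0.78 against Timd4, and lower by a value of −0.40 against Fcrls. The groups overlapped in each of the 9 ratios of Ccr2 to another member.

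Within libraries of code number below 80, where G3 PGC1aOE has 1 library, the log2 CPM of Ccr2 differed by 0.68 and that of Fcrls by 0.84. At 80 and above, where G3 has 1 library, they differed by 1.42 and 2.21. Lyve1 differed by 0.07 and 1.01, Mrc1 by 0.12 and 0.66, Cd163 by 1.16 and 0.53, and Timd4 by 0.42 and 0.62 in the same order. Csf1r differed by 0.42 and 0.70, and C1qa by −0.27 and 1.12. For Lyve1 and Mrc1 both values were positive while the value over all 7 libraries was not. In the same order, the log2 ratio of Ccr2 to Csf1r differed by 0.27 and 0.73. Its ratio to the resident mean differed by 0.24 and 0.72, beside 1.12 over all 7 libraries. Against single resident genes the ratio differed by 0.56 and 0.76 for Mrc1, 0.61 and 0.42 for Lyve1, and 0.26 and 0.80 for Timd4. Against Cd163 it differed by −0.47 below 80 and by 0.90 at 80 and above. Each split leaves 1 group with a single library, so none of these values has a test. With the code number as a term in edgeR, Lyve1 had 0.52, Mrc1 0.38, Cd163 0.81 and Timd4 0.53, so all 4 resident genes were positive there. Ccr2 had 1.04 and Fcrls 1.47 with that term.

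Among the chemokines of the monocyte chemoattractant family, Ccl12 stood apart. Ccl12, which encodes a ligand of CCR2, had 1.09, 1.48, 1.44 and 1.58 CPM across G3 1 to 4, and 2.10, 4.51 and 4.56 CPM across G3 PGC1aOE 1 to 3, from 12 to 62 counts. The groups did not overlap, and edgeR gave 1.41 on the log2 scale (SE 0.36) with an adjusted p of 0.847. Non-overlap in this direction held for 1 of the 4 genes of this family and for 2.19% of all tested genes. The ligand genes Ccl2 and Ccl7 had log2 fold changes of 0.80 and 0.62, and their family member Ccl8 had 0.66. All 4 were positive, beside 50.9% of all tested genes, and 0 passed. Ccl7 was −0.18 with the code number as a term and 0.05 without G3 PGC1aOE 3, and Ccl2 was 0.40 without that library. Of other chemokine receptor genes, Cx3cr1, the receptor of patrolling monocytes and many resident macrophages, had 1.50 and Ccr1 had 0.12 (−0.19 without G3 4), while Ccr3 had at most 1 count in any library.

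None of the 4 tested genes of the macrophage growth factor axis passed, and 3 had positive values, with a median of 0.38 beside 0.01 over all tested genes. Csf1, the main ligand of CSF1R, had a log2 fold change of −0.04 and Il34, its second ligand, had 0.57. The receptor chain genes Csf2ra and Csf2rb had 0.65 and 0.19, and Csf2 itself had at most 1 count. Il34 was 0.15 and Csf2ra 0.22 without G3 PGC1aOE 2.

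Other macrophage genes were mostly on the higher side without passing. Of 16 genes used broadly by macrophages, 15 had a positive value, with a median of 0.44 beside 0.01 over all tested genes (50.9% positive), and 4 had an unadjusted p under 0.05 (edgeR), all on the higher side, where 3.05% of all tested genes lay. These were Cx3cr1 at 1.50 (0.44 to 1.91 over the alternatives), Aif1 at 1.14, Fcgr1 at 0.83 and Tyrobp at 0.89. Cx3cr1 had 5 to 47 counts and Aif1 8 to 81, and the groups overlapped in both. The 16 genes were measured in the same libraries and are not independent. Their mean log2 CPM had a pooled SD within groups of 0.44. Of 12 further genes associated with resident cells, 7 were positive and 5 negative with a median of 0.14, and 3 had an unadjusted p under 0.05 on that side. Those 3 were the chemokine gene Pf4 at 0.98, the lectin gene Cd209f at 1.52 and the scavenger receptor gene Stab1 at 0.54, while Folr2, a folate receptor of resident macrophages, had 0.35 (0.11 without G3 PGC1aOE 3 and 0.56 without G3 PGC1aOE 1). Of 8 tested monocyte genes, 6 were positive with a median of 0.36 and 0 had an unadjusted p under 0.05, and Plac8 had a log2 fold change of 0.65. In all of these lists 0 genes passed the adjusted threshold.

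All 7 genes of MHC class II antigen presentation had positive values, with a median of 1.53 (3.14 without G3 4), and 0 passed. Their level was highest in the 3 libraries with code numbers above 80. H2-Aa, a chain of the class II molecule, measured 4.83, 23.3 and 7.26 CPM in G3 1 to 3, 26.3 in G3 PGC1aOE 1, and 119, 165 and 182 CPM in G3 4 and G3 PGC1aOE 2 and 3. In G3 4, Ccr2 and Fcrls measured 2.78 and 1.50 CPM, within the range of the other G3 libraries. Within G3 PGC1aOE, Ccr2 measured 3.57 CPM in library 1 against 7.79 and 7.66 CPM in libraries 2 and 3. Fcrls measured 2.95 CPM against 7.57 and 7.44 CPM in the same order. With the code number as a term in edgeR, the log2 fold change was 1.04 for Ccr2 and 1.47 for Fcrls. Without that term the values were 1.39 and 1.80. The code number as a cause of the values of Ccr2 and Fcrls was not tested. The smallest unadjusted p of the list (edgeR) was that of H2-DMb1, whose log2 fold change was 1.42. Of 7 tested engulfment and scavenger genes 5 were positive with a median of 0.08, and of 4 tested cytokine and enzyme genes 4 were positive with a median of 0.63. Tgfb1, whose unadjusted p was the smallest of those 4, had a log2 fold change of 0.55 (0.14 without G3 PGC1aOE 2). Havcr1 was at 0 in all 7 libraries.

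**Figure D4:**
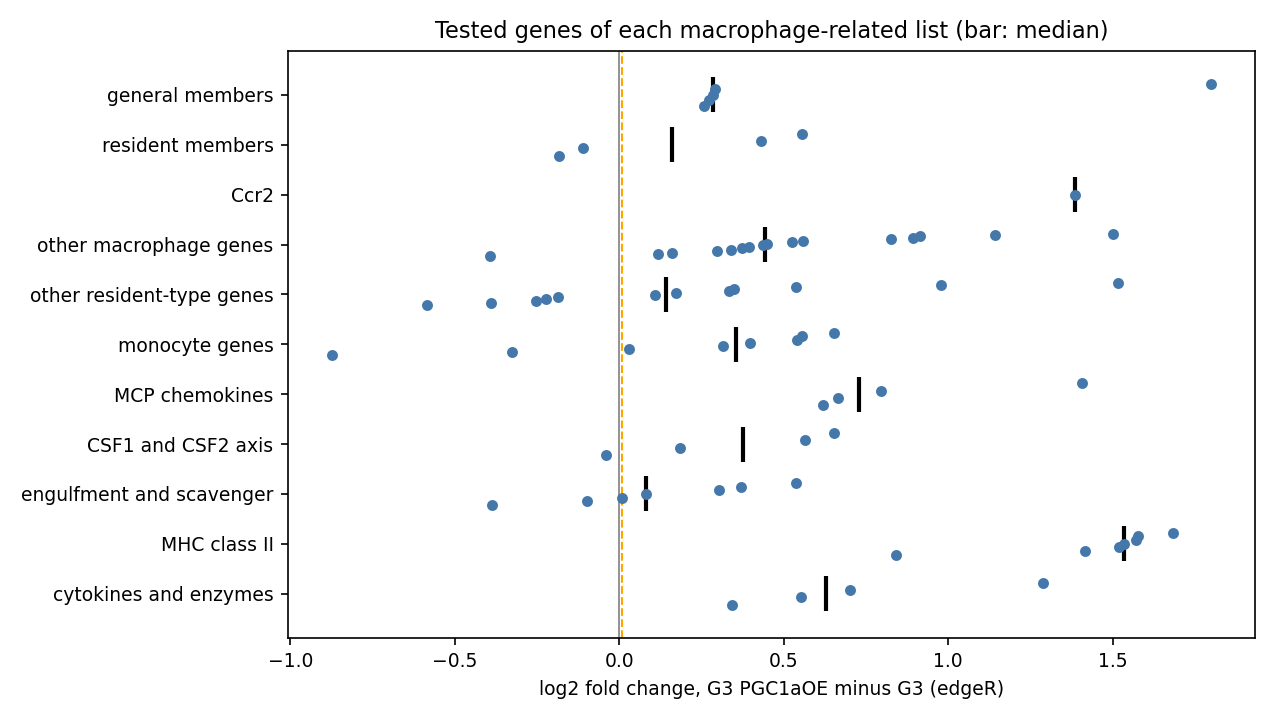
Log2 fold change of each tested gene, G3 PGC1aOE minus G3 (edgeR), grouped by list, with a bar at each list's median and a dashed line at the median of all tested genes. The values of the resident members and of other resident-type genes lie on both sides of 0, and the MHC class II genes lie furthest to the right as a list.

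Markers of other cells are given beside Ccr2 and Fcrls, and 0 genes of these lists passed the adjusted threshold. The general leukocyte genes Ptprc, Coro1a and Cd53 summed to between 20.9 and 29.1 CPM in G3 and between 35.2 and 48.3 CPM in G3 PGC1aOE, 3 of 3 positive, with Coro1a at 1.04 and Ptprc at 0.51. The 6 fibroblast markers summed to between 494 and 977 CPM against 919 and 1419 CPM, 5 of 6 positive with a median of 0.92. For 4 of these 6 the groups did not overlap, on the higher side, beside 2.19% of all tested genes. On that side 4 of the 6 had an unadjusted p under 0.05 (edgeR), beside 3.05% of all. The smallest was that of Col3a1, whose log2 fold change was 1.28. Of the 6 cardiomyocyte markers, 5 were negative with a median of −0.23. Of the 4 genes of microglia, for which Fcrls is also known, Tmem119 (1.10), Sall1 (0.75) and P2ry12 (0.36) were positive and their list summed to between 3.95 and 9.90 CPM against 12.0 and 13.6 CPM. The 6 lymphatic endothelial markers, of interest for Lyve1 and Mrc1, summed to between 105 and 143 CPM against 84.2 and 149 CPM. Their median was 0.10, although Ccl21a was 1.65. Prox1 alone measured 51.8 to 90.1 CPM in G3, so the sum leans on that gene. The markers did not share a pattern. Reln was low in G3 4 and G3 PGC1aOE 2 (4.89 and 4.51 CPM), like Lyve1 and Mrc1, while Flt4 was highest in G3 PGC1aOE 2 (29.2 CPM). The 7 neutrophil markers summed to between 13.5 and 140 CPM against 12.1 and 218 CPM, with a median of −0.17. Only 2 of 8 lymphocyte, 2 of 6 dendritic and 1 of 4 mast cell markers could be tested. The part of these cells in the values of Ccr2, Fcrls, Lyve1 and Mrc1 was not tested.

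Over the 7 libraries, the gene nearest to Ccr2 in pattern was Ccl12, with a root mean square difference of 0.21 in centred log2 CPM among 11393 genes whose mean log2 CPM reached 1. Igf2, a growth factor gene, and Gpc3, a proteoglycan gene, followed at 0.25 and 0.28. Fcrls ranked 36 at 0.40 and the resident gene Timd4 ranked 472 at 0.54. The other resident genes lay far off, with Mrc1 ranked 10499 at 1.20, Lyve1 10434 at 1.19 and Cd163 10005 at 1.13. The general genes C1qa, Cd68, Csf1r and Adgre1 ranked 5043, 5471, 7125 and 7729. The genes nearest to Csf1r were Adamts2, Epn3 and Uap1l1 at 0.08, 0.12 and 0.12, and the nearest member to it was Adgre1, ranked 329 at 0.30. These are descriptions over 7 libraries of 2 groups and carry no test.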

How the data were processed

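Left ventricular RNA was made into libraries with Illumina's TruSeq RNA kit, per the labels' protocols; the kit keeps no strand. The authors deposited whole read counts per Ensembl gene with no normalization, and FPKM that equal those counts divided by the column total and a single gene length per row (length range at most 0.0023 bp). CASAVA, Bowtie 0.12.2 and mm9 are named, per the submitters' processing notes. For the counting program, its annotation and strand setting, "not given in the sources used here" applies.

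Genes of low count (9353) were left out by filterByExpr before TMM scaling of the counts. The test was edgeR 4.0.16 (quasi-likelihood, robust, 2-sided, group as the only term, R 4.3.3) with Benjamini-Hochberg adjustment over 12674 genes at 0.05. Log2 CPM used a prior count of 2. Shared runs of bases were counted in the reference transcripts given, which are of a later build than mm9. Gene symbols matched 21748 of 22027 identifiers. The scripts were tested on simulated counts.

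The members and gene lists were chosen with earlier results of these data known, so lists are described by counts and medians and no p is given over members. Named genes are all members, at most 4 of smallest p per other list, and the genes of 3 short lists, of which 1 is not reported here. Markers were the lists of other heart cells. Alternatives were RLE and upper quartile scaling, other low-count filters, DESeq2 1.42.0, limma 3.58.1 (voom, and log2 FPKM with pseudocounts of 1 and 0.1), terms for code number or code text, the replicate number as a block, and leaving out 1 library at a time. For single genes outside the members the alternatives were added after seeing the data.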

Additional observations from a re-analysis of the deposited data

Results flagged for a closer look

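Within G3, Ccr2 in G3 1 lay far from the other 3 libraries, at 0.52 log2 CPM (14 counts), with a gap to the next library of 0.987 of the whole range. The gap exceeds Dixon's critical value, which chance exceeds in about 1 of 20 groups, and 11 sets of values were examined. Without G3 1 the log2 fold change of Ccr2 was 1.18.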

How the results depend on the processing

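Counts of called genes were 0 in edgeR and 0 in 16 of 18 alternatives, including 0 to 0 with each library left out, and were 3 with DESeq2 and 6 with the replicate block. Ccr2 and Fcrls stayed positive in 18 of 18 alternatives, from 0.64 to 1.67 and from 1.11 to 2.23. Both were lowest on log2(FPKM + 1), where a pseudocount compresses low genes. Their lowest adjusted p was 0.0982 for both (edgeR without G3 PGC1aOE 1), also the lowest of Pf4, Ccl12, Coro1a and Ccl21a. That fit gave 2464 genes an unadjusted p under 0.05, beside 548 in the main fit. Its G3 PGC1aOE libraries both have code numbers above 80. Among members, 170 of 180 values kept their sign and 10 did not. Lyve1 was 0.11 with limma voom, 0.52 with the code number as a term, and 0.07, 0.10 and 0.14 without G3 1, G3 2 and G3 PGC1aOE 2. Mrc1 was 0.38 with the code number as a term, and 0.10 and 0.09 without G3 2 and G3 PGC1aOE 2. C1qa was −0.082 without G3 PGC1aOE 2 and Cd163 was −0.23 without G3 PGC1aOE 1. Of the other named genes, Csf1 was 0.0015 with upper quartile scaling, 0.089 with the code number as a term, 0.19 without G3 2 and 0.041 without G3 PGC1aOE 3; Ccl7 was −0.18 with the code number as a term; Ccr1 was −0.25 with the replicate block, −0.19 without G3 4 and −0.19 without G3 PGC1aOE 1; Csf2rb was −0.071 with the replicate block, −0.0049 without G3 4 and −0.30 without G3 PGC1aOE 1. With each library left out, values ran from −0.082 to 0.59 for C1qa, −0.39 to 0.14 for Lyve1, −0.54 to 0.10 for Mrc1, −0.23 to 0.84 for Cd163, −0.19 to 0.49 for Ccr1, −0.15 to 0.19 for Csf1 and −0.30 to 0.40 for Csf2rb. The log2 ratio of Ccr2 to Csf1r differed by 0.53 to 1.48 with each library left out, and by 1.25 with the replicate block. The labels do not state that replicate numbers are a pairing. Deviations of same-numbered libraries correlated at 0.456 (the highest of all pairs), 0.123 and −0.0863, and G3 PGC1aOE 2 correlated best with G3 4, at 0.332. So few correlations cannot decide whether libraries were paired. The cause of these changes was not tested. Among the members, low counts limit Ccr2, Fcrls and Timd4, at 14, 10 and 14 counts in their lowest library. Some other named genes went lower, such as Cx3cr1 and Cd209f at 5 counts and Ccl7 at 3. On log2(FPKM + 0.1) the median of all genes was −0.11.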

Other observations

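Chil3 and 2 neutrophil genes, chosen after their values were seen, were lower in the 3 libraries with code numbers above 80. Chil3, a chitinase-like gene of the monocyte list, measured 12.8, 6.87 and 3.05 CPM in G3 1 to 3 and 8.93 CPM in G3 PGC1aOE 1, against 0.073 and 0.29 CPM in G3 PGC1aOE 2 and 3 and 0 of its counts in G3 4. S100a8, a calcium-binding protein gene abundant in neutrophils, measured 51.3, 24.9 and 33.3 CPM in G3 1 to 3 and 88.1 CPM in G3 PGC1aOE 1, against 3.38, 2.62 and 8.69 CPM in G3 4 and G3 PGC1aOE 2 and 3. Mmp8, a neutrophil collagenase gene, measured 9.03, 5.76, 4.13 and 10.5 CPM against 0.15, 0.22 and 0.15 CPM in the same order. The part of neutrophils in the values of Chil3 was not tested. None of the 3 genes separated the labelled groups.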
